A study of Rattus norvegicus with 12 samples.

Results

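The hippocampus is built from fields that can be told apart by the genes their neurons express, and 8 such field marker genes were followed across CA1 tissue from 12 rats. Probe sets, the groups of short probes that report 1 transcript on an Affymetrix array, were taken where the platform annotation gives a single gene symbol and that symbol is on the list. The 8 genes, of 10412 named by the array, gave 10 of its 15923 probe sets. The CA1 genes Wfs1, Fibcd1, Itpka and Gpr161 had 5 probe sets, the CA3 gene Nnat had 1, and the dentate gyrus genes Trpc6, Stxbp6 and Sema5a had 4. The genes were picked from longer marker lists because their levels differed between the groups of rats, so the group differences given here describe them and were not tested.

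RNA was measured on Affymetrix RAE230A arrays, 1 array per rat, in microdissected CA1 of young male Long-Evans rats aged 3 to 4 months. All rats had standard water maze training and, 2 to 3 weeks later, 1 session of 8 trials, 8 min apart, in a maze at another site. In spatial learning rats (n = 6) orienting cues were present and the visible platform kept its place, and in control task rats (n = 6) the visible platform moved between trials and informative cues were lacking. All 12 rats then swam a 90 s probe trial without the platform 1 h after the last trial, and were killed straight afterwards, so swimming, handling and the probe trial were shared by both groups.

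In the hippocampal circuit, granule cells of the dentate gyrus send mossy fibres to the pyramidal cells of CA3, whose axons reach the pyramidal cells of CA1. A microdissected CA1 can carry some tissue of its neighbours, and a field marker need not be wholly absent from the other fields. In bulk tissue of this kind, fewer cells of a type and less RNA per cell cannot be told apart.

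Markers of every field could be read in the tissue. Wfs1, Fibcd1, Itpka and Gpr161, as well as Pou3f1 and Mpped1, transcripts typical of CA1 pyramidal cells that are not among the 8 genes, lay above the level of 4 (log2) used to leave out dim probe sets. So did markers of the other fields, among them Nnat, Bok, Pcp4, Stxbp6 and Prox1, the transcription factor of dentate granule cells, at a mean of 5.74 over the 12 arrays. The CA1 transcripts Spink8 and Kcnh7 and the granule cell transcripts Dsp and Tdo2 were below that level. Passing it therefore does not tell CA1 from its neighbours, and the CA1 label was taken from the dissection. Of the 10 probe sets of the 8 genes, 9 passed the level filter. The tenth was the second probe set of Sema5a, which stood at a mean of 2.96 in each group and carries no information on the gene.

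Some arrays stood apart. Control replicate 6 and spatial learning replicate 6 had high Ptgds and Col1a1, transcripts of the meninges, and control replicate 3 had the highest Ttr, a transcript of the choroid plexus, at 13.41. The same control replicate 6 had the highest mean of the CA1 genes and the lowest Nnat of its group, on the side of the spatial learning arrays, while spatial learning replicate 6 had the lowest mean of the CA1 genes and the highest Nnat of its group, on the side of the controls. Whether tissue other than CA1 in these arrays has a part in the results was not tested. Values without these 3 arrays, an alternative added after the data were seen, are given for each gene. Leaving out the replicate 6 arrays widens the differences of the CA1 mean and Nnat by construction, so the wider values are not further evidence for them. Hexokinase, a control transcript, has probe sets near its 3' and its 5' end, whose difference widens as RNA degrades. This gap lay between 1.35 and 1.55 in control task rats and between 1.55 and 1.82 in spatial learning rats. The ranges barely overlap, so the gap and the task cannot be separated in these arrays, also where the gap is used as a covariate.

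RefSeq promoter sequences (GRCr8 assembly) were matched for 5 of the 8 genes. The 250 bases before the start site are shown for Wfs1, Fibcd1 and Gpr161 (the first of its annotated starts), CA1 genes that stood on the same side of the comparison, and for Trpc6 as a dentate counterpart. Capitals mark GC boxes (GGGCGG) and E-boxes (CANNTG), the letters that Sp1-type factors and the basic helix-loop-helix factors of neurons bind, on either strand.
Wfs1 (chr14:78034955-78035204, + strand): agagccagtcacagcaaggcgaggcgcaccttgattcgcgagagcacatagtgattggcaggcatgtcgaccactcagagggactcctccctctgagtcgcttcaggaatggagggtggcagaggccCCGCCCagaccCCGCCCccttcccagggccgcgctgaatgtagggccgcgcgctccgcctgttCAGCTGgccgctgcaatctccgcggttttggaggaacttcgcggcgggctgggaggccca
Fibcd1 (chr3:35524143-35524392, - strand): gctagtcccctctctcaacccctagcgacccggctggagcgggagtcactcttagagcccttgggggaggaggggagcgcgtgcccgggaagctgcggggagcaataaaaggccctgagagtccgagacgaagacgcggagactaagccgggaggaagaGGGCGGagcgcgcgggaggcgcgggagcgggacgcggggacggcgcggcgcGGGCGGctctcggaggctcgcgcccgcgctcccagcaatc
Gpr161 (chr13:80111021-80111270, + strand): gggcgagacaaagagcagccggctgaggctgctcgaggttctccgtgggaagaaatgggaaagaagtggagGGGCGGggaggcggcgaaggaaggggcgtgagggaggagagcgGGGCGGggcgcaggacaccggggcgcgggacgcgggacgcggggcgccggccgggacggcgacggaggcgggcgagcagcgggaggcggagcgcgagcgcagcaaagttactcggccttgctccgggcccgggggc
Trpc6 (chr8:14043966-14044215, + strand): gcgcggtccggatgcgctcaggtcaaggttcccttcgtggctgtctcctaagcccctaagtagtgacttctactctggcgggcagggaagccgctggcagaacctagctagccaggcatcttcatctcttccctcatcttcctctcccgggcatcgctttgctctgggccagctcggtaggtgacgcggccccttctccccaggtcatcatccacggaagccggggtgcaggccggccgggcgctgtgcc
The Wfs1, Fibcd1 and Gpr161 windows shown each held 2 GC boxes, and the Trpc6 window held 0. The window of a second annotated Gpr161 start, not shown, held 0 GC boxes and 1 E-box. Over 33469 promoter windows of the same length, 30.5% held at least 1 GC box. The Wfs1 window held 1 E-box and the other 3 windows 0, against 65.5% of all windows with at least 1. The cyclic AMP response element TGACGTCA, the octamer ATGCAAAT that POU factors bind and the homeobox core TAATTA were searched on both strands as well and matched 0 times in these 4 windows. The 4 windows had a GC content of 64.4% to 74.8%, above the median of 51.2%, and a match describes the letters only.

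The 4 CA1 genes stood higher after spatial learning and Nnat and the 3 dentate genes lower. Across the whole array, limma called 0% of 9610 tested probe sets higher and 0% lower (adjusted p at 0.05), while 1048 had an unadjusted p under 0.05, and robust eBayes also called 0. Since the 8 genes were chosen on this contrast, nothing is read from their counts. In 0.364% of tested probe sets all spatial learning arrays lay above all controls, and in 0.271% all lay below. Of the 9 tested probe sets of the 8 genes, 0 had groups that did not overlap. Each difference given here is the mean log2 value after spatial learning minus that after the control task, with limma's standard error (SE) for single probe sets and that of the 2 group means for averages.

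**Figure D1:**
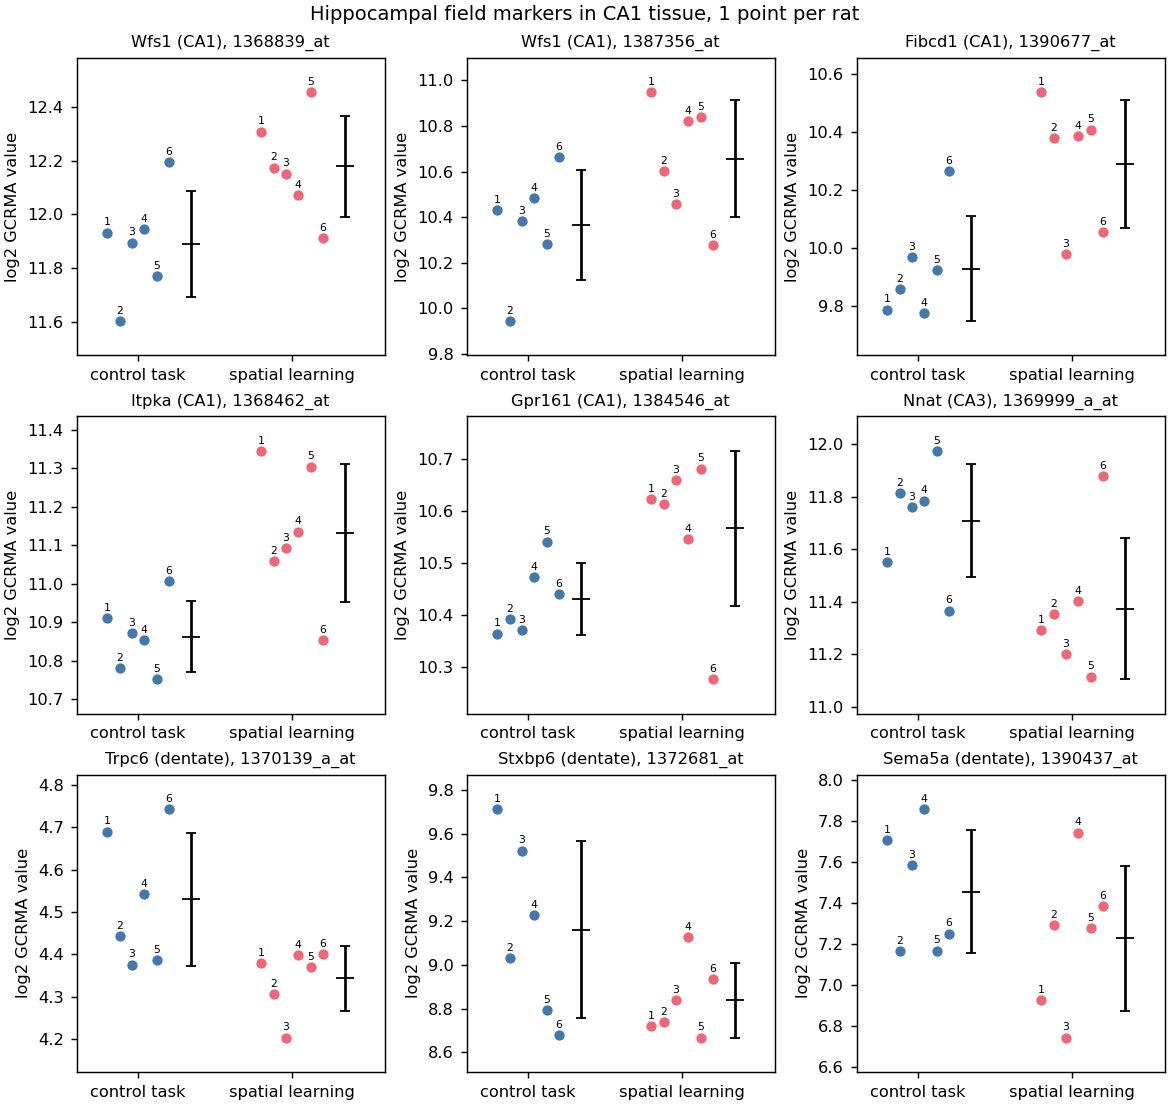
Log2 GCRMA values (y axes) of the 9 tested probe sets of the 8 field markers, 1 point per rat, numbered by replicate, in the control task (blue) and spatial learning (red) groups. Black bars are the mean ± SD of 6 arrays, and spatial learning replicate 6 sits apart from its group in Itpka, Gpr161 and Nnat.

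Wfs1 encodes wolframin, a membrane protein of the endoplasmic reticulum that is strongly expressed in CA1 pyramidal cells. Its brighter probe set ran from 11.60 through a median of 11.91 to 12.20 in control task rats and from 11.91 through 12.16 to 12.45 in spatial learning rats. The groups overlapped, with 2 of the 6 spatial learning arrays above the highest control and 5 above the control median. The difference was 0.29 (SE 0.10), a 1.22-fold higher level. A second Wfs1 probe set gave the same difference, 0.29 (SE 0.13), with 3 spatial learning arrays above all controls. Without the 3 arrays that stand apart the probe sets gave 0.42 and 0.45, and with the hexokinase gap as a covariate the second gave 0.48. The pair of probe sets tracked each other within the groups, with r = 0.97 over the 6 control arrays and r = 0.73 over the 6 spatial learning arrays.

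Fibcd1 encodes a membrane receptor with a fibrinogen-like domain that binds acetylated sugars. Its values were 9.77, 9.89 and 10.26 (lowest, median, highest) in control task rats and 9.98, 10.38 and 10.54 in spatial learning rats. All 6 spatial learning arrays lay above the control median and 4 above the highest control, which was replicate 6. The difference of 0.36 (SE 0.10) was the widest of the CA1 genes, and it was 0.50 without the 3 arrays that stand apart.

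Itpka encodes inositol trisphosphate 3-kinase A, an actin-bundling enzyme of dendritic spines. It stood at 10.75, 10.86 and 11.01 in control task rats and at 10.85, 11.11 and 11.35 in spatial learning rats. Replicate 6 was the only spatial learning array not above every control, and the difference was 0.27 (SE 0.08), or 0.36 without the 3 arrays that stand apart.

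Gpr161, an orphan G protein-coupled receptor of the primary cilium that restrains Hedgehog signalling, stood at 10.36, 10.42 and 10.54 in control task rats and at 10.28, 10.62 and 10.68 in spatial learning rats. Its 5 other spatial learning arrays were above all controls and replicate 6 was below all of them. The difference was 0.14 (SE 0.06), the narrowest of the CA1 genes. It was 0.18 without the 3 arrays that stand apart and 0.29 with the hexokinase gap as a covariate. The within-group SD of Gpr161, 0.12, was larger than that of 46.9% of the tested probe sets, and those of Itpka, Wfs1 and Fibcd1 were larger than that of 62.7%, 81.6% and 83.8%.

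Nnat encodes neuronatin, a small proteolipid of the endoplasmic reticulum expressed from the paternal allele. It ran from 11.37 through 11.77 to 11.97 in control task rats and from 11.12 through 11.32 to 11.88 in spatial learning rats. In spatial learning rats 4 arrays lay below all controls, whereas replicate 6 was above the control median. The difference was -0.34 (SE 0.12), and -0.51 without the 3 arrays that stand apart. Its within-group SD of 0.24 was larger than that of 90.3% of the tested probe sets.

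Trpc6 encodes a cation channel opened by diacylglycerol. It was dim, only just above the level filter, at 4.38, 4.49 and 4.74 in control task rats and at 4.20, 4.38 and 4.40 in spatial learning rats. All 6 spatial learning arrays lay below the control median and 3 below every control, with a difference of -0.19 (SE 0.07), or -0.18 without the 3 arrays that stand apart.

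Stxbp6 encodes amisyn, a SNARE-binding protein that restrains vesicle fusion. Its values were 8.68, 9.13 and 9.71 in control task rats and 8.67, 8.79 and 9.13 in spatial learning rats. The control arrays were widely spread, from replicate 6 at the bottom to replicate 1 at the top, and only 1 spatial learning array was below all controls. The difference was -0.32 (SE 0.16). It was -0.21 without control replicate 1 and -0.37 without the 3 arrays that stand apart.

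Sema5a encodes a transmembrane semaphorin that guides axons and limits synapses on granule cells. It stood at 7.17, 7.42 and 7.86 in control task rats and at 6.74, 7.29 and 7.74 in spatial learning rats, and the difference was -0.23 (SE 0.17). It was -0.13 without spatial learning replicate 3, -0.15 without control replicate 4 and -0.28 without the 3 arrays that stand apart. The groups overlapped widely, with 2 spatial learning arrays below all controls and replicate 4 above the control median. The within-group SDs of Stxbp6, 0.31, and Sema5a, 0.33, exceeded those of 95.8% and 96.4% of tested probe sets.

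Averaged by field, the mean of the 4 CA1 genes was 10.78 ± 0.11 in control task rats and 11.04 ± 0.16 in spatial learning rats (mean log2 ± SD over 6 arrays each), a difference of 0.26. The mean of the 3 dentate genes was 7.05 ± 0.23 and 6.80 ± 0.18, a difference of -0.25. The gap between the CA1 and the dentate means was thus 0.51 wider after spatial learning (SE 0.15), with 4 of 6 spatial learning arrays above every control. The gap between the CA1 mean and Nnat was 0.60 wider (SE 0.21), with 5 of 6 arrays above every control and replicate 6 within the control range. Leaving out control replicates 3 and 6 and spatial learning replicate 6, these gaps were 0.64 and 0.88 wider. That increase follows from the choice of arrays, since replicate 6 of each group lies on the other group's side in the CA1 mean and Nnat.

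**Figure D2:**
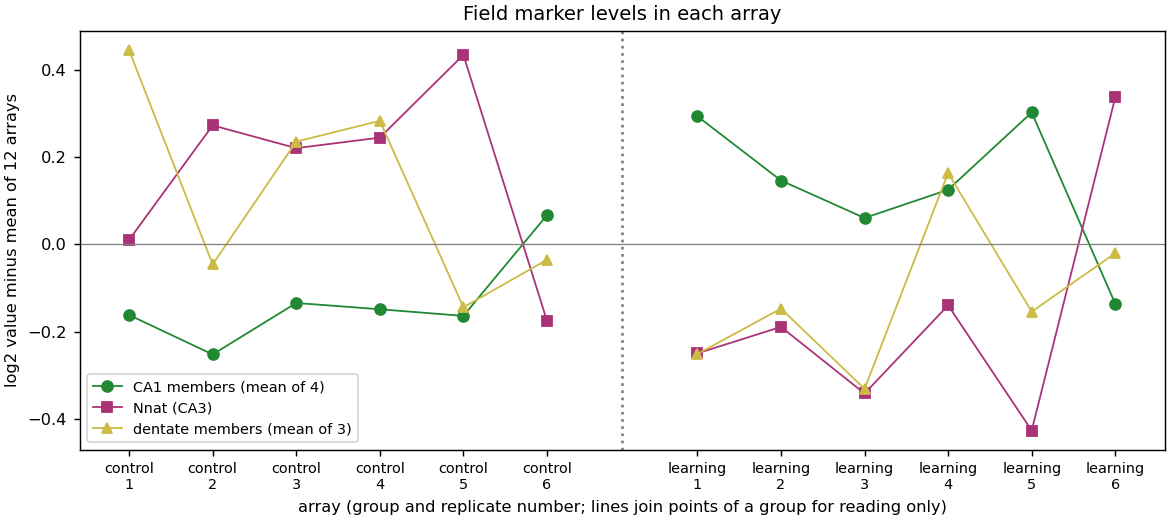
Mean log2 value of the 4 CA1 genes, of Nnat and of the 3 dentate genes in each array, each minus its mean over the 12 arrays (y axis), by group and replicate number (x axis). The CA1 genes and Nnat had r = -0.75 in control task rats and -0.83 in spatial learning rats. Replicate 6 of each group, the extreme array of both measures, carries much of this opposition. The dentate genes had r = -0.12 and -0.29 with the CA1 genes.

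The genes were also followed from rat to rat within a group, over the 28 pairs of the 8 genes. Because the set was put together with its trade-off between fields in view, these relations are a description and carry no test. Each array's deviation from its group mean was taken, and r was computed over the 12 arrays. The 6 pairs of CA1 genes had r from 0.32 to 0.85, with a median of 0.58, but without spatial learning replicate 6 the pairs of Gpr161 with Itpka and with Fibcd1 went from 0.57 to -0.05 and from 0.32 to -0.06. The 4 pairs of a CA1 gene with Nnat had r from -0.84 to -0.46. Without spatial learning replicate 6 that of Gpr161 was 0.10. The 12 pairs of a CA1 gene with a dentate gene were mixed, with 9 negative and 3 positive and a median r of -0.12.

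The closest pair was Wfs1 and Itpka (r = 0.85, rho over ranks within groups 0.74), high and low in the same rats of both groups. The relation was r = 0.91 in control task rats and r = 0.90 in spatial learning rats. Without the 2 arrays farthest from the median of Wfs1, r was 0.90.

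Itpka and Nnat ran opposite to each other (r = -0.84, rho -0.80). Within control task rats the order of the 6 arrays in Itpka was the exact reverse of that in Nnat (r = -0.96, rho -1), and in spatial learning rats r was -0.81. Wfs1 and Nnat were likewise opposed (r = -0.82, rho -0.80), with r = -0.79 in control task rats and r = -0.85 in spatial learning rats. Without the 2 farthest arrays the values were -0.84 for each of these pairs.

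The arrays that stand apart carried part of these relations. Without spatial learning replicate 6, r was 0.81 for Wfs1 and Itpka, -0.69 for Itpka and Nnat and -0.78 for Wfs1 and Nnat. Without control replicates 3 and 6 and spatial learning replicate 6 together, the values were 0.74, -0.56 and -0.61.

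**Figure D3:**
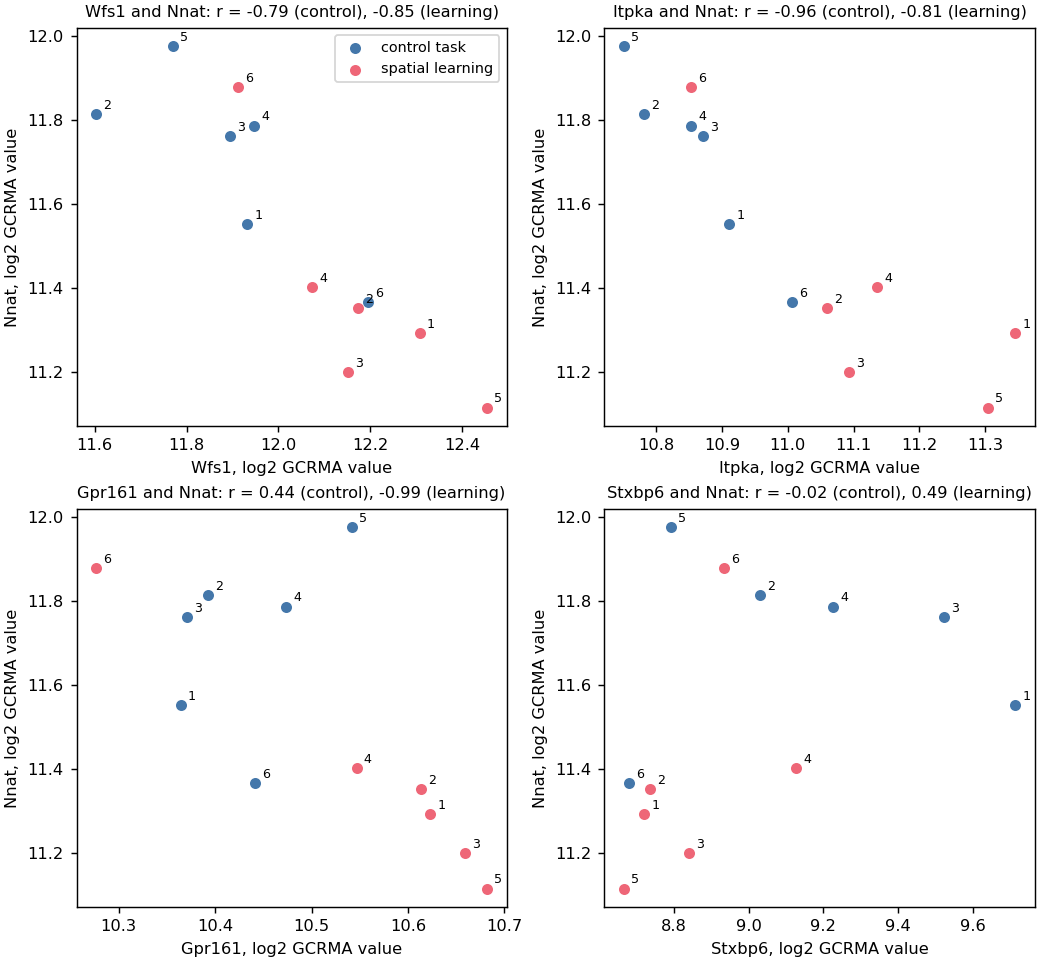
Log2 GCRMA value of Nnat (y axes) against that of Wfs1, Itpka, Gpr161 and Stxbp6 (x axes), 1 point per rat, numbered by replicate and coloured by group. Nnat falls as Wfs1 and Itpka rise in both groups, while Gpr161 and Nnat have r = -0.99 in spatial learning rats and r = 0.44 in control task rats.

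The relation of Gpr161 with Nnat had opposite signs in the 2 groups. In spatial learning rats Gpr161 followed Nnat in exact reverse order (r = -0.99, rho -1), and r was still -0.94 over the 5 arrays without replicate 6. In control task rats r was 0.44, and over both groups -0.59. Fibcd1 and Nnat gave r = -0.46.

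Among the dentate genes, Stxbp6 and Sema5a had r = 0.75 in control task rats, r = 0.61 in spatial learning rats and r = 0.62 over both. Trpc6 and Stxbp6 had r = 0.03. Trpc6 and Nnat had r = -0.90 in control task rats and r = 0.44 in spatial learning rats. Over both groups, the strongest negative relations of a CA1 with a dentate gene were those of Stxbp6 with Gpr161 and with Fibcd1, both at r = -0.44. Single groups held stronger ones. Wfs1 and Stxbp6 had r = -0.74 in spatial learning rats and -0.09 in control task rats. Gpr161 and Stxbp6 had r = -0.69 in control task rats and -0.50 in spatial learning rats. In the other direction, Itpka and Trpc6 had r = 0.83 in control task rats. At the level of field means, the CA1 and dentate genes had r = -0.12 (rho 0.37) in control task rats and r = -0.29 (rho -0.26) in spatial learning rats. The CA1 mean and Nnat had r = -0.75 (rho -0.77) and r = -0.83 (rho -0.66). In each group replicate 6 was the extreme array of both measures and carried much of this opposition. Over the spatial learning arrays without replicate 6, Nnat had r = -0.94 with Gpr161, -0.76 with Wfs1, -0.43 with Itpka and 0.29 with Fibcd1.

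**Figure D4:**
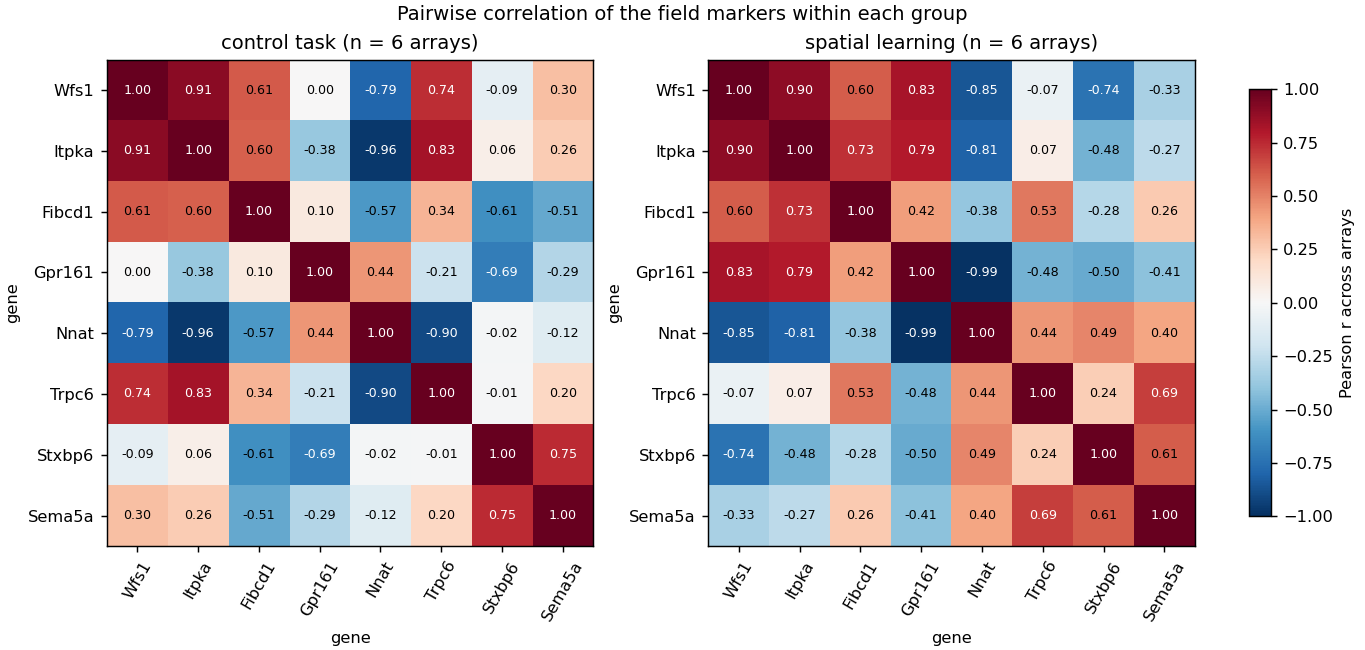
Pearson r across the 6 arrays of each group for every pair of the 8 genes (x and y axes), control task on the left and spatial learning on the right, red for positive and blue for negative r. Wfs1, Itpka and Fibcd1 are positively related and Nnat is opposed to all 3 in both groups, while Gpr161 and Itpka have r = -0.38 on the left and r = 0.79 on the right. For Fibcd1 and Nnat in spatial learning rats, r = -0.38 becomes 0.29 without replicate 6.

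Other markers of the fields, from lists that hold none of the 8 genes, were read beside them. Over all tested probe sets the median difference was 0.01, 53.7% being above 0. Of 6 tested CA1 markers 5 were higher and 1 lower (median 0.07), and 0 passed limma in either direction. Those with the widest differences were Man1a1, a mannosidase of the Golgi, at 0.15 (SE 0.12), Tyro3, a receptor tyrosine kinase, at 0.11 (SE 0.05), Mpped1 at 0.09 (SE 0.07) and Pou3f1, a POU-domain transcription factor, at 0.06 (SE 0.08). All 6 tested dentate markers were lower (median -0.15), and 0 passed. They were led by Tiam1, an activator of the small GTPase Rac, at -0.30 (SE 0.16), Igfbp5, an insulin-like growth factor binding protein, at -0.28 (SE 0.09), Prox1 at -0.23 (SE 0.18) and Sipa1l2 at -0.07 (SE 0.12). Tiam1 was dim, with a mean of 4.20 in control task rats and 3.90 in spatial learning rats. It passed the level filter of 4 only through the control arrays, so its difference lies at the filter. The limma adjusted p was 0.447 at the lowest among the CA1 markers and 0.409 among the dentate markers.

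Of the other CA3 markers 3 were tested, with 2 higher and 1 lower, and 0 passed limma. Bok, a BCL2 family protein, stood at 0.37 (SE 0.07, limma adjusted p = 0.216). Its groups did not overlap, with a median of 8.69 and a highest value of 8.86 in control task rats against a lowest of 8.97 and a median of 9.08 in spatial learning rats. A second Bok probe set gave 0.40. Grik4, a kainate receptor subunit of mossy fibre synapses, stood at 0.07 (SE 0.04) and Plagl1, an imprinted zinc finger factor, at -0.07 (SE 0.15). Nnat and Bok, both listed for CA3, thus stood on opposite sides of 0.

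CA2, the narrow field between CA3 and CA1, had 3 tested markers and 0 passed. Pcp4, a calmodulin-binding peptide, stood at 9.27, 9.73 and 10.12 in control task rats and at 8.99, 9.18 and 9.68 in spatial learning rats. As in Nnat, control replicate 6 was the lowest control and spatial learning replicate 6 the highest spatial learning array. The difference was -0.46 (SE 0.14, limma adjusted p = 0.388). Rgs14, which marks CA2 pyramidal cells, stood at 0.13 (SE 0.08) and Amigo2, a cell adhesion protein, at -0.02 (SE 0.15).

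**Figure D5:**
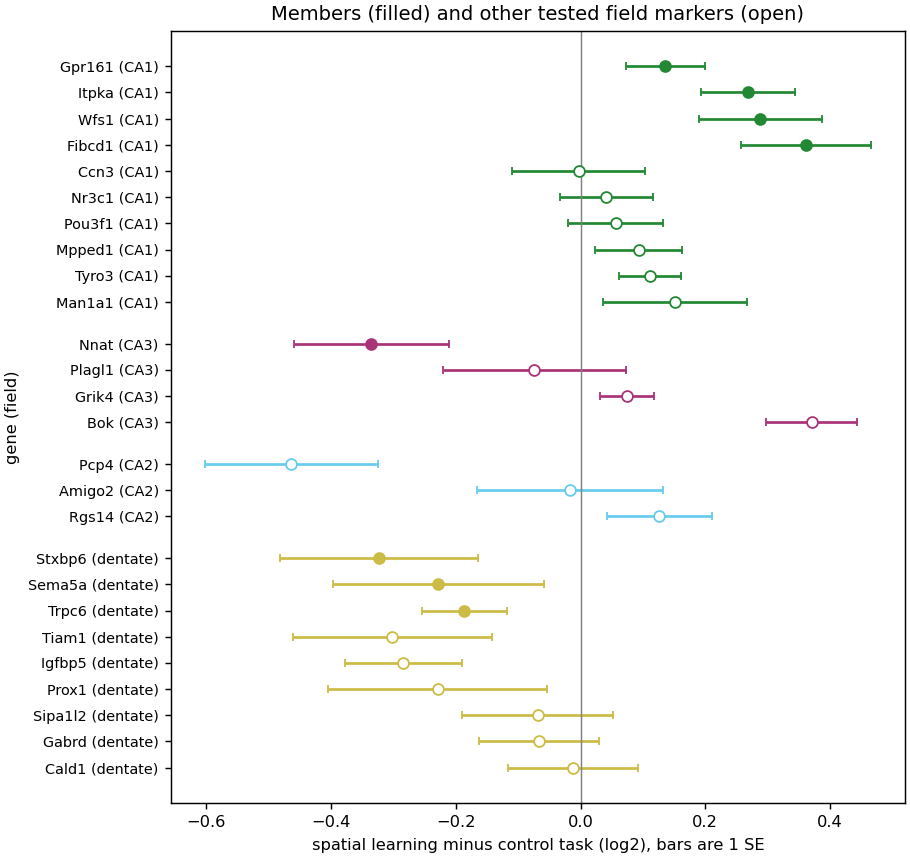
Spatial learning minus control task difference (x axis, log2) for the brightest probe set of each of the 8 genes (filled) and of the other tested field markers (open), by field (y axis). Bars are 1 SE from limma, and the filled genes were chosen for their difference, so that they lie farther from 0 is set by that choice. The open dentate points all lie below 0 and the open CA3 points on both sides.

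The relation between fields was also measured, and tested, in these other lists, which hold none of the 8 genes. The lists were nevertheless chosen with earlier results of these data known, so the exact permutation p values may not be independent of the data. In spatial learning rats the per-array means of the other CA1 and the other dentate markers were opposed (r = -0.86, exact permutation p = 0.0208, rho -0.89, exact permutation p = 0.0333), but not after adjustment over the 6 relations (0.125). In control task rats r was -0.48 (rho -0.54, exact permutation p = 0.344, adjusted 0.517). Without the 2 arrays farthest from the median of the CA1 markers, only 4 arrays were left in each group. Over these, r was -0.97 in spatial learning rats and -0.24 in control task rats, not tested. Over both groups' deviations the relation was -0.62 (exact permutation p = 0.0417, adjusted over 3 relations 0.125). The other CA1 and CA3 lists gave r = 0.03 in control task rats and -0.55 in spatial learning rats, and the CA3 and dentate lists -0.66 and 0.36, with adjusted p of at least 0.458 in these 4 exact permutation tests. The mean of the 4 CA1 genes and that of the other CA1 markers had r = 0.95 (rho 0.83) in control task rats and r = 0.68 (rho 0.31) in spatial learning rats. For the dentate genes and the other dentate markers these values were 0.93 (rho 0.83) and 0.26 (rho 0.20). The r of 0.68 rests on spatial learning replicate 6, the lowest of its group in both CA1 means, at 10.77 and 9.68.

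Genes were then ranked by how closely they followed the gap between the CA1 and the dentate genes within groups, over the 12 arrays and 6859 other named genes. The closest were Skil, a SKI-family corepressor of TGF-beta signalling (r = 0.91), Tma7 (0.89), Dgkz, a diacylglycerol kinase (0.88), Cttn, the actin-binding protein cortactin (0.87), and Zmat2, a zinc finger protein of the spliceosome (0.86). The most opposed were Ncald, the neuronal calcium sensor neurocalcin delta (r = -0.92), Cct2, a subunit of the TRiC chaperonin (-0.90), Nefh, the heavy neurofilament subunit (-0.88), Eef1akmt1, a methyltransferase of elongation factor 1A (-0.87), and Rgs4, a regulator of G protein signalling (-0.87). These are the extremes of a ranking and were not tested. They did not share a group difference, since Dgkz stood at 0.38, Ncald at -0.59 and Rgs4 at -0.47 while Tma7 stood at -0.17, Cct2 at -0.06 and Nefh at -0.03, and 0 of the 10 passed limma. Without control replicate 6 Dgkz passed, at 0.42 (limma adjusted p = 0.0209). That array had the widest gap of the controls and Dgkz was picked for following the gap, so this pass is not further evidence. No probe set passed when any other single array was left out.

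Markers of other cells were read as well, and 0 passed limma. All 6 tested microglial markers were lower after spatial learning (median -0.16), with P2ry12, a purine receptor of resting microglia named here after its value was seen, at -0.43 (SE 0.14, limma adjusted p = 0.388), and the range of their mean was 7.10 to 7.66 in control task rats and 6.97 to 7.45 in spatial learning rats. Of 8 astrocyte markers 7 were lower and 1 higher (median -0.03). Ttr stood at 4.55, 6.81 and 13.41 in control task rats and at 3.66, 4.36 and 4.43 in spatial learning rats, without overlap, a difference of -3.33 (SE 1.17, limma adjusted p = 0.423). Of the 3 tested choroid plexus markers 2 were lower and 1 higher. Their mean differed by -1.19, most of it from Ttr. Enpp2 stood at -0.41 (SE 0.23) and Kcne2, a dim probe set, at 0.18 (SE 0.08). Folr1, Kcnj13, Kl, F5 and Cldn2 were below the level filter.

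The mean of 6 oligodendrocyte markers ran from 11.14 to 11.44 in control task rats and from 11.13 to 11.50 in spatial learning rats, and it was opposed to the CA1 genes across the deviations of the 12 arrays (r = -0.72). Of these markers 2 were higher and 4 lower. Of the neighbouring brain region markers 3 were tested. Slc17a6 stood at -0.73 (SE 0.26) and Ppp1r1b at -0.13 (SE 0.06). Tcf7l2, dim at a mean of 4.23, was near 0, at -0.005 (SE 0.06). The mean of the 3 ran from 6.36 to 6.77 in control task rats and from 5.96 to 6.50 in spatial learning rats. This mean followed the dentate genes (r = 0.76), while Drd1, Drd2 and Tac1 were below the level filter. Over the pooled deviations of both groups, the meningeal and choroid plexus means had r between -0.11 and 0.10 with the CA1 genes, Nnat and the dentate genes. Control replicate 6 and spatial learning replicate 6, both high in Col1a1 and Ptgds, deviated in opposite directions. Their deviations were 0.20 and -0.27 in the CA1 mean and -0.34 and 0.50 in Nnat. Relations of opposite sign cancel in a pooled r, so it cannot show whether they are absent within each group. The hexokinase gap was related to the CA1 mean with r = 0.36 in control task rats and r = -0.73 in spatial learning rats, and to Nnat with r = -0.76 and r = 0.74. The part of these measures in the group differences was not tested. With the hexokinase gap as a covariate, added after the data were seen, the CA1 mean differed by 0.36 (SE 0.11), Nnat by -0.42 (SE 0.20) and the dentate mean by -0.31 (SE 0.17). The gap barely overlapped between the groups, and its relations to the CA1 mean and Nnat changed sign between them. A fit with a shared slope therefore cannot separate the gap from the task.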

How the data were processed

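Values were the authors' deposited log2 probe set summaries, made with GCRMA per the submitters' processing notes, which corrects background by probe sequence, normalizes between arrays and compresses differences of dim probe sets. Version and settings: not given in the sources used here; the log2 scale was read from the range, 0.134 to 14.8. Groups and replicate numbers came from the sample titles. No label names a batch, so none was fitted.

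Non-control probe sets with a mean of at least 4 over all arrays (9610 of 15866) went into limma 3.58.1 under R 4.3.3 (lmFit, eBayes with trend, 2-sided, Benjamini-Hochberg over all tested), and the fit was tested on simulated data. Each gene entered means and relations through its brightest probe set. Relations between the other marker lists used exact permutation over all 720 orders per group, and relations among the members were left untested. The members and the marker lists were chosen with earlier results of these data known. Named genes were all members, the 4 widest differences per field list, the 5 genes at each end of the likeness ranking, and Prox1, Pou3f1, Ttr, Col1a1 and Ptgds. The 28-pair analysis was added after the data were seen. The labels call the arrays biological replicates, and their number limits the precision.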

Additional observations from a re-analysis of the deposited data

Results flagged for a closer look

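Of 86 groups of 6 values checked for a single array far from the rest, 12 held one, and chance gives about 1 in 20. Among the 8 genes, Gpr161 in spatial learning replicate 6 stood at 10.28, below the next array at 10.55, and the mean of the CA1 genes in control replicate 6 stood at 10.98, above the next at 10.78. The same control replicate 6 was high in Man1a1 at 9.47, against 9.01 for the next array, and in Cttn at 9.80, against 9.53.

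Control replicate 6 and spatial learning replicate 6 were high in Col1a1, at 6.67 and 6.84 against at most 3.71 elsewhere, and in Ptgds, at 12.66 and 12.52 against at most 10.94. Amigo2 was high in control replicate 5 at 6.58 and in spatial learning replicate 6 at 6.15. Tiam1 was high in spatial learning replicate 5 at 4.39, and Ttr was low in spatial learning replicate 4 at 3.66.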

How the results depend on the processing

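Over the alternatives tried (other level filters, quantile normalization, median centring, robust eBayes, all probe sets of a gene, each member or array left out, the 3 arrays that stand apart left out, the hexokinase gap), the CA1, Nnat and dentate means and the 9 tested probe sets kept the sign of their difference wherever they were fitted. Level filters and robust eBayes cannot change the difference of a probe set that stays in, only its SE. The 8 genes were chosen on this contrast, so the kept sign is not further evidence for it. The CA1 mean ranged from 0.23 to 0.37, Nnat from -0.51 to -0.28 and the dentate mean from -0.31 to -0.18. Gpr161 differed by 0.29, from 0.14, with the hexokinase gap as a covariate, a fit that cannot separate the gap from the task. The number of probe sets past the limma threshold was 0 in all arrays, ranged from 0 to 3 when 1 array was left out (3 without control replicate 6), and was 5 without the 3 arrays that stand apart. None of these called probe sets was of the 8 genes. Those named by the array were Dgkz and Cit without control replicate 6, and Dgkz, Atp1b2, Bsn and Ralgapb without the 3 arrays, which are singled out after their values were seen. With the replicate number as a block it was 0. Each number occurs once per group, so the block cannot change the CA1 difference of 0.26. Its SE was 0.10 with the block and 0.08 without. Over the tested probe sets, arrays of the same number did not deviate together (correlations from -0.17 to 0.08). These values show no pairing by number but cannot exclude one. The replicate 6 arrays of both groups shared high Col1a1 and Ptgds.

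Relations were less stable. Without the 3 arrays that stand apart, r changed sign for Fibcd1 and Nnat (0.34) and for Gpr161 and Nnat (0.20), the latter ranging from -0.81 to 0.10 when 1 array was left out, with 0.10 without spatial learning replicate 6. In control task rats the relation of the other CA1 and CA3 markers was -0.41 with genes scaled to unit SD and ranged from -0.33 to 0.23 with 1 array left out, and that of the other CA1 and dentate markers from -0.67 to 0.084, the latter without control replicate 6. The cause was not tested.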
